A study of Homo sapiens with 15 samples.

Results

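The 35 genes described here encode the enzymes that build cholesterol and fatty acids, the proteins that carry sterols within and out of the cell, and the regulators that set the activity of both pathways. They were taken as the rows of the deposited count table whose Entrez numbers map to a fixed set of symbols, and all 35 were found among the 28395 genes of the table. By role they fall into 8 genes of the mevalonate pathway, 10 of the steps from squalene formation to cholesterol, 5 of sterol transport, 5 regulators and 7 of fatty acid synthesis and desaturation. A further 55 genes of the same pathways were tested beside them. BEAS-2B, an established human bronchial epithelial line, was cultured in serum-containing medium with polyethylene terephthalate nanoplastics (PET-NPLs) made from water bottles, at 50 µg/mL and renewed with each change of medium, or without particles at matched passage. Total RNA was sequenced from 2 control and 2 exposed samples after 24 h, 2 control and 2 exposed samples after 15 weeks, and 3 control and 4 exposed samples after 30 weeks. The labels place the 24 h and 15 weeks samples in batch 1 and the 30 weeks samples in batch 2, so comparisons of exposed with control cells lie within a batch, while those of 30 weeks with 15 weeks cross it and time and batch cannot be told apart there. No source says that replicates were separate cultures, so p-values measure the spread between these samples, which may be technical.

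Cholesterol is made from acetyl-CoA through mevalonate and farnesyl pyrophosphate, which is condensed to squalene, closed into the ring of lanosterol and trimmed to cholesterol in the endoplasmic reticulum. Fatty acids are made from the same acetyl-CoA pool by carboxylation, chain assembly and desaturation. Both sets of enzymes are known targets of the SREBP transcription factors, encoded by SREBF1 and SREBF2, which SCAP escorts to the Golgi for cleavage when sterols are low and which the INSIG proteins hold back when sterols are high. In airway epithelium, sterols and unsaturated fatty acids supply membranes, and ABC transporters export surplus cholesterol.

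Promoters are shown for the genes most raised in exposed over control cells at 30 weeks and for 1 regulator. The bases below lie upstream of the start of transcription, from RefSeq on GRCh38.p14. Of the 35 members, 31 had an entry of 300 bases, from 250 before to 50 after the start. The CCAAT letters, read on both strands, occurred in 19 of these 31 promoters (61.3%), in 11 of 15 of the sterol synthesis genes (73.3%) and in 3 of 6 of the fatty acid genes (50%), against 36.4% of 12504 promoters of the genes tested and 35.7% of all 27305 promoters in the reference. The GC box GGGCGG was in 29 of 31 (93.5%), against 66.7% of the promoters of genes tested. The sterol regulatory element in the strict form TCACNCCAC was in 1 of 31, the promoter of SREBF2, against 1.08% of the promoters of genes tested. A match is a description of letters and not a tested site, and its absence says only that those letters are not in this window. In the lines below, capitals mark CCAAT on either strand, in SREBF2 also the sterol regulatory element, and in CYP51A1, whose promoter held no CCAAT, the GC box. The first 4 are the sterol genes with the largest excess of exposed over control cells at 30 weeks. SCD is the fatty acid gene with the largest excess, and SREBF2 is the regulator.
LSS, minus strand, chr21:46228890-46228954: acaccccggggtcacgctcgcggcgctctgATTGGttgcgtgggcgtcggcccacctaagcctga
STARD4, minus strand, chr5:111512631-111512695: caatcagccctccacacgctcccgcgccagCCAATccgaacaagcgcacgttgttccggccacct
CYP51A1, minus strand, chr7:92134503-92134568: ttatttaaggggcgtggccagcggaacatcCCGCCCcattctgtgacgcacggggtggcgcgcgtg
HMGCS1, minus strand, chr5:43313478-43313542: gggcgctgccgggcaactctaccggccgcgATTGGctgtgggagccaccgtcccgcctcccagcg
SCD, plus strand, chr10:100347017-100347081: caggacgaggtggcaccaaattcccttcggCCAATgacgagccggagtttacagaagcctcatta
SREBF2, plus strand, chr22:41832942-41833010: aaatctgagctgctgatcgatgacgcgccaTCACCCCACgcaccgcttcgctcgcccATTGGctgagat

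Library totals ran from 23143202 to 31459990 counts, expression is given as counts scaled to library size by TMM factors (CPM), 1 CPM corresponded to 23.3 to 33.9 counts, and the lowest member count in any library was 102, so every member was far above the detection limit in every sample. The spread between replicates was wider at 30 weeks (common biological coefficient of variation 20.1%) than at 24 h (10.8%) or 15 weeks (7.82%). Markers of the labelled cell type were partly missing: of 9 epithelial markers, 3 or 4 reached a mean of 1 CPM in a group, GRHL2 and ESRP1 were at or near 0, and airway transcription factors summed to 0.561 CPM or less in every sample at 15 and 30 weeks. Epithelial markers summed to 314 to 411 CPM in the 30 weeks controls against 880 to 1097 CPM in the exposed cells, fibroblast markers (10 genes) to 1977 to 2505 against 1620 to 1843 CPM, and the 14 skeletal muscle markers to 311 to 401 against 32.8 to 43.3 CPM, with 8 against 3 of the 14 at a mean of 1 CPM or more and MYF5 and MYF6 at 0 in both. In the 8 earlier samples the muscle sum was 17.3 to 42.5 CPM. The epithelial sum was 1987 to 2297 CPM at 24 h and 826 to 1036 CPM at 15 weeks, over both arms. The fibroblast sum was 1619 to 1759 CPM and 1338 to 1419 CPM at these times. Airway transcription factors summed to 6.62 to 10.0 CPM at 24 h. A set of 6 small noncoding RNAs was picked by name (RN7SL1, RN7SK, RN7SL2, RPPH1, SNORD3A and RMRP). It took 22.3% to 31.0% of the counts in the 30 weeks controls and 17.0% to 21.5% in the exposed cells. These values move with exposure at 30 weeks, and so with every difference given for that time, and their part in it was not tested. In bulk samples, fewer cells of a type and less RNA per cell cannot be told apart.

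After 24 h of exposure the members did not separate exposed from control cells. None of the 35 passed the test (edgeR quasi-likelihood, Benjamini-Hochberg over all genes), against 0% of the 16740 genes tested, and none had an unadjusted p under 0.05, which 277 genes had. The median log2 fold change of the members was -0.01, with a range from -0.29 to 0.15. DESeq2 and limma-voom, with and without surrogate variables, also called 0 members at this time.

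After 15 weeks 0 of 35 members were called by edgeR, against 0% of all genes. DESeq2 and limma-voom, with and without surrogate variables, also called 0 members, while DESeq2 called 5 genes higher and 12 lower over all genes and limma-voom with surrogate variables 5 and 5. Only SC5D, which encodes the desaturase that introduces a double bond into the sterol ring late in the pathway, had an unadjusted p under 0.05 in the fit of all samples. SC5D stood at 40.3 and 33.9 CPM in the controls and at 48.6 and 47.2 CPM in the exposed cells. The exposed samples were both above the controls, with a log2 fold change of 0.37 (SE 0.16, unadjusted p = 0.0371 and adjusted p = 0.985 from edgeR). With 2 samples per group, the groups did not overlap, in either direction, for 16 of 35 members and 7589 of 16740 genes, so such separation is common. Over all genes, 823 had an unadjusted p under 0.05. The members' median was 0.02, between -0.35 for SREBF1 and 0.37 for SC5D. With each time point fitted alone, 0% of genes were called at 24 h and 1.96% at 15 weeks, and no member was among them. In the 15 weeks fit 8 of 35 members had an unadjusted p under 0.05, 7 higher and 1 lower, against 16.5% of all genes. The smallest adjusted p were those of SC5D (0.059) and IDI1 (0.062), and the others were LSS, STARD4, NPC1, INSIG2 and SCD, all with higher estimates, and SREBF1 with a lower one. In the 24 h fit SC5D alone had an unadjusted p under 0.05 (log2 fold change -0.30, unadjusted p = 0.0215, adjusted p = 1.00 from edgeR).

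After 30 weeks most of the sterol and fatty acid enzymes were higher in the exposed cells than in the controls of that time. In this comparison, rose and fell mean higher and lower than those controls. Changes since 15 weeks are given further below. Of the 35 members, 22 rose and 0 fell, against 23.7% of all genes tested called in either direction, 12% higher and 11.7% lower. The log2 fold change had a median of 0.50 over the members and 0.01 over all genes. In 19 of the 35 every exposed sample was above every control sample, and in 0 was it below, while the groups did not overlap, in either direction, for 27.3% of all genes. Of the sterol synthesis genes 14 of 18 rose (median 0.65), of the fatty acid genes 5 of 7 (median 0.58), 3 of 5 transport genes rose, and 0 of 5 regulators passed the test. Fitted on the 7 samples of this time alone, whose spread is wider than the one shared over all times, 16 members were called, all higher, against 15.3% of genes, and ACAT2, AACS, MVD, NPC1, ACLY and FADS2 were no longer called. With library totals in place of TMM factors, the median of all genes moved to 0.22, calls over all genes became 3654 higher and 1072 lower in place of 2009 and 1952, and 25 members rose with a median of 0.71.

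**Figure D1:**
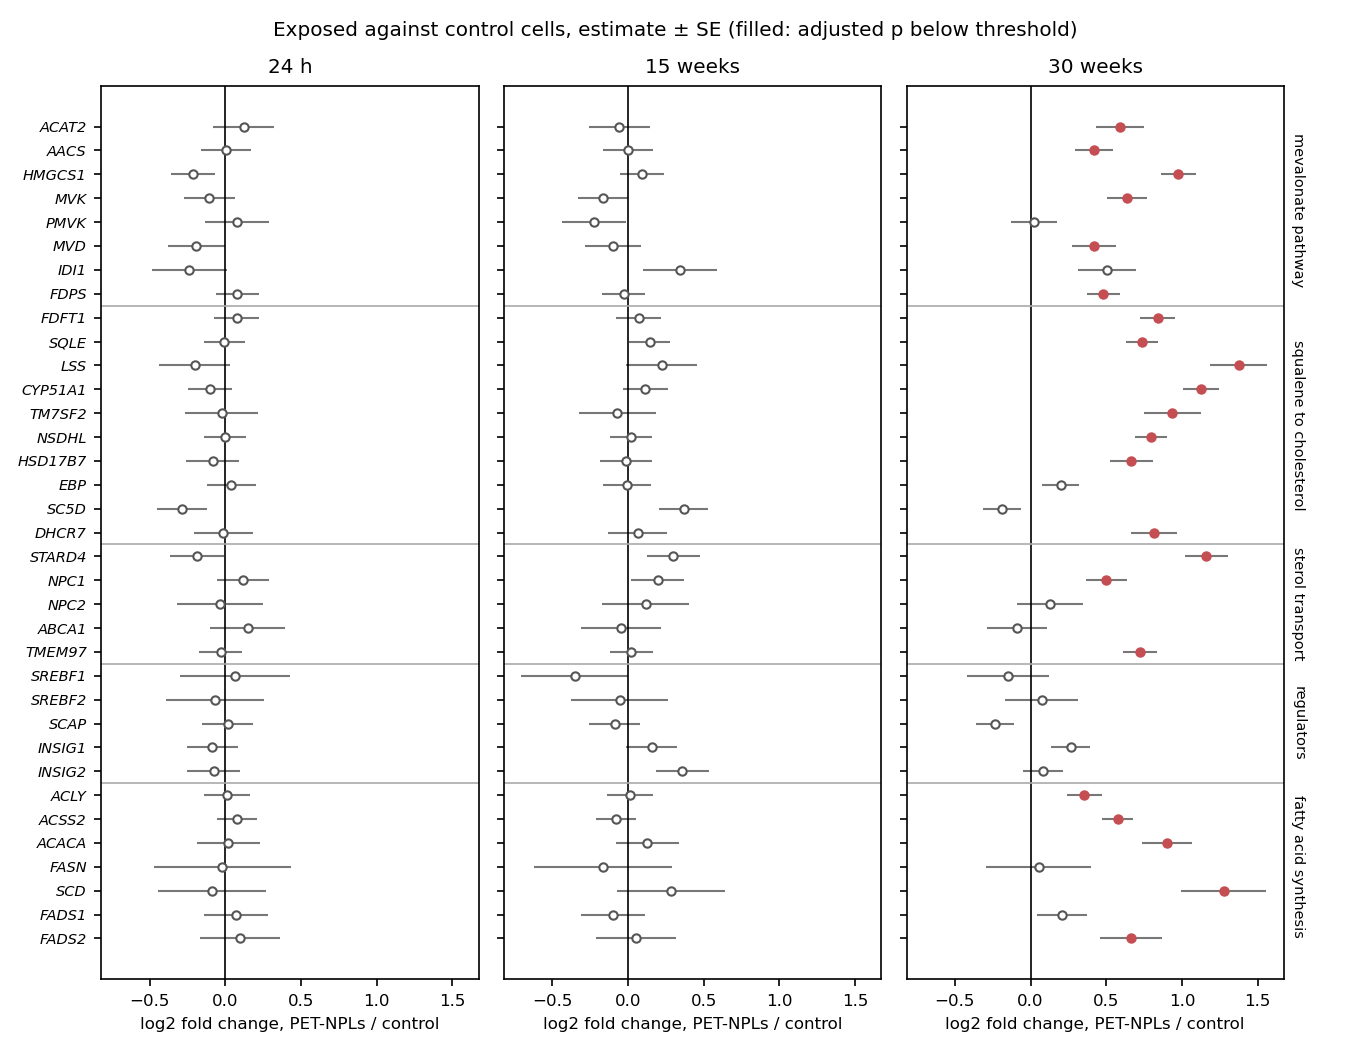
Log2 fold change of exposed against control cells (horizontal axis, points with SE bars) for the 35 genes by role (vertical axis), at 24 h, 15 weeks and 30 weeks. Filled points passed an adjusted p of 0.05: 0 genes at 24 h, 0 at 15 weeks and 22 at 30 weeks, all of them right of the zero line.

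In the mevalonate pathway 6 of 8 genes rose at 30 weeks. The largest change was in HMGCS1 (Entrez 3157, chr5:43287470-43313412), the cytosolic synthase that joins acetoacetyl-CoA and acetyl-CoA into HMG-CoA. HMGCS1 stood at 63.0, 64.7 and 71.4 CPM in the controls and at 134, 116, 122 and 151 CPM in the exposed cells (log2 fold change 0.98, SE 0.12, adjusted p = 1.45e-05). The exposed samples were all well above the controls, by 1.97-fold in the fit. MVK, which phosphorylates mevalonate, was at 22.7, 21.7 and 21.3 CPM without and 28.7, 31.4, 35.3 and 40.9 CPM with particles (log2 fold change 0.64, SE 0.13, adjusted p = 0.00205). FDPS, which makes farnesyl pyrophosphate, was at 182, 178 and 173 CPM in the controls and 240.4, 278, 254 and 219 CPM after exposure (log2 fold change 0.48, SE 0.11, adjusted p = 0.00463). Neither gene overlapped between the groups, and FDPS was highest in exposed replicate 2. ACAT2, the cytosolic thiolase that makes acetoacetyl-CoA, moved from 75.0, 85.7 and 81.5 CPM to 109.9, 168, 104 and 104 CPM (log2 fold change 0.59, SE 0.16, adjusted p = 0.0123). Exposed replicate 2 was far above the other exposed samples for ACAT2, and the call was lost without control replicate 1 (adjusted p = 0.057) and in the fit of 30 weeks alone (adjusted p = 0.063).

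The other called genes of this branch changed less. AACS, which activates acetoacetate in the cytosol, was at 47.2, 41.4 and 48.5 CPM in the controls and 65.7, 47.4, 63.7 and 67.5 CPM in the exposed cells (log2 fold change 0.42, SE 0.13, adjusted p = 0.0255). Exposed replicate 2 lay among the controls for AACS, and the call was lost without control replicate 1 or 2 or without exposed replicate 1, 3 or 4 (adjusted p = 0.053 to 0.096). MVD, which decarboxylates mevalonate pyrophosphate, was at 27.5, 21.9 and 27.7 CPM and 29.2, 28.8, 39.0 and 40.1 CPM (log2 fold change 0.42, SE 0.14, adjusted p = 0.0457). The groups were separated by a narrow margin for MVD, and its call was lost in 17 of 25 alternatives, among them every exclusion of a library other than exposed replicates 1 and 2 of 30 weeks (adjusted p up to 0.17). IDI1, the isomerase that interconverts the activated isoprenoid units, did not pass the test at 25.3, 29.9 and 24.0 CPM and 28.5, 55.6, 30.0 and 35.8 CPM (log2 fold change 0.50, SE 0.19, adjusted p = 0.0679), and exposed replicate 2 was again the highest. PMVK, the kinase after MVK, had means of 20.6 and 20.9 CPM (log2 fold change 0.02, SE 0.15, adjusted p = 0.940).

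From squalene formation to cholesterol, 8 of 10 genes rose at 30 weeks, and in all 8 the groups did not overlap. LSS (Entrez 4047, chr21:46188446-46228774), the cyclase that folds oxidosqualene into lanosterol, stood at 91.1, 76.7 and 108 CPM in the controls and 278, 155, 239.6 and 281 CPM in the exposed cells. The lowest exposed sample, replicate 2, was still above the highest control, and the fold of 2.59 was the largest among the members (log2 fold change 1.37, SE 0.19, adjusted p = 5.39e-05). CYP51A1 (Entrez 1595, chr7:92112153-92134803), the lanosterol demethylase, was at 40.0, 44.8 and 42.8 CPM and 102, 83.4, 86.4 and 99.4 CPM. Both groups were tight, 2.18-fold apart, and the adjusted p of 3.12e-06 was the smallest among the members (log2 fold change 1.13, SE 0.12). FDFT1, which makes squalene and whose activity commits farnesyl pyrophosphate to sterols, was at 136, 139 and 155 CPM in the controls and 276, 216, 252 and 280.1 CPM after exposure (log2 fold change 0.84, SE 0.12, adjusted p = 6.56e-05). SQLE, the squalene epoxidase, was at 69.9, 82.1 and 70.5 CPM and 133, 121, 114 and 126 CPM (log2 fold change 0.74, SE 0.11, adjusted p = 1.06e-04). Exposed replicate 2 was the lowest exposed sample for LSS, CYP51A1 and FDFT1, but not for SQLE.

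Among the later ring-modifying enzymes, TM7SF2, a sterol reductase, was the lowest in CPM, at 5.38, 4.12 and 4.94 CPM in the controls and 8.69, 7.74, 9.07 and 11.3 CPM in the exposed cells (log2 fold change 0.94, SE 0.19, adjusted p = 0.00197). NSDHL, which removes the methyl groups at the sterol ring together with other enzymes, was at 33.7, 32.4 and 38.5 CPM and 63.6, 59.2, 62.5 and 57.1 CPM (log2 fold change 0.80, SE 0.11, adjusted p = 5.05e-05). Both genes were higher in all 4 exposed samples than in all 3 controls. HSD17B7, the ketosteroid reductase of the same demethylation, was at 7.66, 8.77 and 7.59 CPM and 15.5, 10.6, 11.4 and 13.3 CPM (log2 fold change 0.67, SE 0.14, adjusted p = 0.00268). DHCR7, the reductase of the last step, was at 44.2, 39.5 and 47.9 CPM and 80.1, 53.3, 87.6 and 87.8 CPM (log2 fold change 0.82, SE 0.15, adjusted p = 0.00101). For DHCR7, exposed replicate 2 was only just above the highest control, while the other 3 exposed samples lay close together. EBP, the sterol isomerase, ranged from 132 to 176 CPM in the controls and from 155 to 190.0 CPM in the exposed cells and did not pass the test (log2 fold change 0.20, SE 0.12, adjusted p = 0.260). SC5D was the only member of sterol synthesis with a negative estimate, at 34.6, 40.6 and 36.8 CPM and 30.3, 40.0, 28.4 and 32.5 CPM (log2 fold change -0.19, SE 0.12, adjusted p = 0.303). Without exposed replicate 2, whose level lay among the controls, SC5D passed the test as lower (log2 fold change -0.30, adjusted p = 0.034). It was also called lower in all samples by limma-voom with surrogate variables (log2 fold change -0.26, adjusted p = 0.045), which called 23 members higher and SC5D as the 1 lower.

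Of the sterol transport genes, STARD4, TMEM97 and NPC1 rose at 30 weeks. STARD4 (Entrez 134429, chr5:111496033-111512535), a cytosolic carrier that moves sterol between membranes, stood at 27.2, 38.0 and 31.4 CPM in the controls and 70.2, 77.1, 63.8 and 77.0 CPM in the exposed cells (log2 fold change 1.16, SE 0.14, adjusted p = 1.78e-05). TMEM97, a membrane protein that binds sterols and NPC1, was at 37.2, 34.3 and 33.6 CPM and 59.2, 59.7, 52.7 and 59.6 CPM (log2 fold change 0.72, SE 0.11, adjusted p = 2.05e-04). Both were clearly separated, with a change of 2.24-fold for STARD4. NPC1, which releases cholesterol from late endosomes and lysosomes, was at 103, 119 and 128 CPM and 195, 128, 163 and 174 CPM (log2 fold change 0.50, SE 0.13, adjusted p = 0.0125). The highest control and the lowest exposed sample of NPC1 nearly met, and the call was lost without control replicate 1 (adjusted p = 0.067). NPC2, the soluble partner of NPC1 in the lysosome, overlapped widely, from 36.3 to 64.1 CPM in the controls and 41.9 to 84.7 CPM in the exposed cells (log2 fold change 0.13, SE 0.22, adjusted p = 0.725). ABCA1, the exporter of cholesterol to apolipoproteins, was low and did not separate the groups, at 5.25 to 9.77 and 5.78 to 7.50 CPM (log2 fold change -0.09, SE 0.20, adjusted p = 0.795).

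None of the 5 regulators passed the edgeR test at 30 weeks, none had an unadjusted p under 0.05, and DESeq2 and limma-voom, with and without surrogate variables, called none. SREBF2, the regulator best known for sterol genes, was at 93.9, 68.6 and 120.3 CPM in the controls and 126, 52.4, 93.3 and 125 CPM in the exposed cells (log2 fold change 0.07, SE 0.24, adjusted p = 0.868). SREBF1, best known for fatty acid genes, was at 31.7, 20.0 and 42.2 CPM and 33.3, 14.3, 27.8 and 37.6 CPM (log2 fold change -0.15, SE 0.27, adjusted p = 0.745). For both genes replicate 2 was the lowest sample of its own group, the spread within a group exceeded the difference between groups, and the sign of the estimate changed with the libraries used. SCAP, the escort protein, ranged over 66.8 to 93.4 CPM in the controls and 58.3 to 78.9 CPM in the exposed cells (log2 fold change -0.24, SE 0.13, adjusted p = 0.204). INSIG1, a retention protein that is itself a known SREBP target, was at 126, 143 and 130.1 CPM and 164, 132, 156 and 188 CPM (log2 fold change 0.27, SE 0.13, adjusted p = 0.149). All exposed samples of INSIG1 other than replicate 2 were above all controls, and without that replicate the gene passed the test as higher (log2 fold change 0.35, adjusted p = 0.021). INSIG2, its paralog, ranged over 12.1 to 16.2 and 13.4 to 17.3 CPM (log2 fold change 0.08, SE 0.13, adjusted p = 0.712).

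In fatty acid synthesis 5 of 7 genes rose at 30 weeks. SCD (Entrez 6319, chr10:100347233-100364826), the desaturase that makes oleate and palmitoleate, stood at 134, 154 and 236 CPM in the controls and 486, 199.7, 403 and 602 CPM in the exposed cells. Exposed replicates 1, 3 and 4 were above every control, replicate 2 lay between control replicates 2 and 3, and the fitted change was 2.42-fold (log2 fold change 1.28, SE 0.28, adjusted p = 0.00374). ACACA, which carboxylates acetyl-CoA to malonyl-CoA, was at 57.2, 65.4 and 78.2 CPM and 153, 88.7, 121 and 137 CPM (log2 fold change 0.90, SE 0.16, adjusted p = 7.76e-04). ACSS2, which makes acetyl-CoA from acetate, was at 36.3, 39.0 and 39.0 CPM and 59.1, 50.5, 55.9 and 61.8 CPM (log2 fold change 0.58, SE 0.10, adjusted p = 7.01e-04). ACACA and ACSS2 did not overlap between the groups, and replicate 2 was again the lowest exposed sample for both.

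ACLY, which makes cytosolic acetyl-CoA from citrate for both pathways, was at 398, 376 and 425 CPM in the controls and 579, 431, 497 and 538 CPM in the exposed cells (log2 fold change 0.36, SE 0.12, adjusted p = 0.0373). Exposed replicate 2 was barely above the highest control for ACLY, and the call was lost in 15 of 25 alternatives, among them the exclusion of any library of 30 weeks other than control replicate 3 and exposed replicate 2, of any library of 15 weeks or of either exposed library of 24 h (adjusted p = 0.053 to 0.112). FADS2, the desaturase of polyunsaturated fatty acids, was at 84.8, 78.1 and 118 CPM and 151, 92.1, 153 and 197 CPM (log2 fold change 0.66, SE 0.21, adjusted p = 0.0291). FADS2 overlapped in exposed replicate 2, and its call was lost without control replicate 1 or 2 or exposed replicate 1, 3 or 4 (adjusted p = 0.053 to 0.122). FADS1, the companion desaturase, ranged over 124 to 169 and 117 to 211 CPM (log2 fold change 0.21, SE 0.16, adjusted p = 0.398) and passed the test only without exposed replicate 2 (log2 fold change 0.35, adjusted p = 0.028). FASN, the multienzyme that assembles palmitate, was at 195, 77.0 and 215 CPM and 220.1, 90.7, 138 and 225 CPM (log2 fold change 0.05, SE 0.35, adjusted p = 0.934). Replicate 2 had the lowest FASN level in the controls as well as in the exposed cells, and each group covered nearly the same range.

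Sterol synthesis and fatty acid synthesis were compared by the summed CPM of their members in each sample, which is weighted toward the abundant genes. The 18 sterol synthesis genes summed to 1104, 1072 and 1113 CPM in the 30 weeks controls and 1798, 1681, 1744 and 1835 CPM in the exposed cells, with no overlap and little spread in either group. The 7 fatty acid genes summed to 1029, 938 and 1280.3 CPM in the controls and 1827, 1069, 1543 and 1972 CPM in the exposed cells. Here exposed replicate 2 lay among the controls and the other 3 exposed samples above them. The ratio of the sterol sum to the fatty acid sum was 1.07, 1.14 and 0.869 in the controls and 0.984, 1.57, 1.13 and 0.930 in the exposed cells, and the groups overlapped. Exposed replicate 2 had the highest ratio of all 15 samples. At 24 h and 15 weeks the ratio lay between 1.13 and 1.43. The sterol sums were 1372 and 1540 CPM in the 24 h controls and 1473 and 1379 CPM in the exposed cells of that time. At 15 weeks they were 1922 and 1748 CPM in the controls and 1913 and 1951 CPM in the exposed cells. The sterol sums of the 30 weeks controls were thus below those of all other samples, and time and batch cannot be told apart there. Per kilobase of exon, the most abundant members in the exposed cells of 30 weeks were ACLY at 98.2 and EBP at 98.1 mean CPM per kilobase, then SCD at 80.6 and FDPS at 66.7, and the least abundant was ABCA1 at 0.603.

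**Figure D2:**
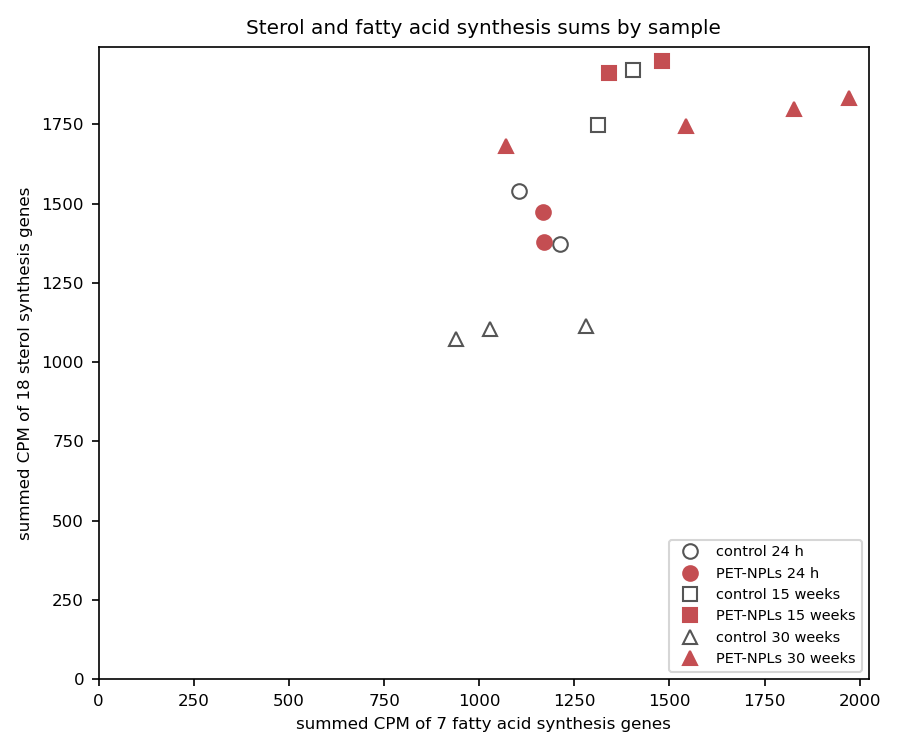
Summed TMM-scaled CPM of the 7 fatty acid synthesis genes (horizontal axis) against that of the 18 sterol synthesis genes (vertical axis), 1 point per sample, open for controls and filled for exposed cells, with a shape for each time. The 30 weeks controls lie at 1072 to 1113 CPM on the sterol axis, below all other samples, and the 30 weeks exposed samples spread from 1069 to 1972 CPM on the fatty acid axis.

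Whether exposure acted differently at 30 weeks than at 15 weeks was tested by the difference of the exposed-to-control changes. The difference was positive and called for 9 of 35 members and negative and called for 0, against 4.74% of all genes. Of the 9, 6 belong to sterol synthesis, with LSS at 1.15 (log2 difference, SE 0.30, adjusted p = 0.0355), CYP51A1 at 1.01 (adjusted p = 0.00376) and HMGCS1 at 0.88 (adjusted p = 0.00965) having the largest differences of those called. MVK, NSDHL and FDFT1 had differences of 0.80, 0.78 and 0.77. The others were the transport genes STARD4 at 0.86 and TMEM97 at 0.70, and ACSS2 at 0.65 was the only called gene of fatty acid synthesis. The 2 effects come from different batches, and the count moved strongly with single libraries. Without exposed replicate 2 of 30 weeks, 17 members were positive and 1, SC5D, was negative (-0.67, adjusted p = 0.0142 from edgeR). Limma-voom with surrogate variables gave 19 positive and again SC5D negative (-0.69, adjusted p = 0.00456). The count was 1 without control replicate 1 of 15 weeks, 2 without either exposed library of 15 weeks, 4 without control replicate 2 of 15 weeks or exposed replicate 4 of 30 weeks, and 5 without either control of 24 h, control replicate 1 or 2 of 30 weeks or exposed replicate 1 of 30 weeks.

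From 24 h to 15 weeks, within batch 1, the members of control and of exposed cells were tested separately, and the 2 arms share no samples. In the controls 9 of 35 were called, 5 higher and 4 lower, against 24.9% of all genes, and in the exposed cells 13 were called, 10 higher and 3 lower, against 26%. All 5 genes higher in the controls (AACS, HMGCS1, FDFT1, SQLE and INSIG1) were among the 10 higher in the exposed cells. Of the 4 lower in the controls, 3 (75%) were the 3 lower in the exposed cells (TM7SF2, NPC2 and ABCA1). The overlap of calls between the arms over all genes is not given here, so this overlap is not read as particular to the members. HMGCS1 went from 95.1 and 107 to 233 and 226 CPM in the controls (log2 fold change 1.19, SE 0.15, adjusted p = 2.63e-05) and from 91.1 and 83.0 to 253 and 236 CPM with particles (log2 fold change 1.49, SE 0.15, adjusted p = 2.50e-06). The 15 weeks samples were well above those of 24 h in both arms. FDFT1 and INSIG1 were next among the genes called higher in both, at 1.09 and 0.89 in the controls and 1.09 and 1.14 in the exposed cells on the log2 scale.

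ABCA1, NPC2 and TM7SF2 fell over the same interval. ABCA1 went from 12.2 and 13.2 to 5.59 and 3.69 CPM in the controls (log2 fold change -1.45, SE 0.26, adjusted p = 6.77e-04) and from 14.4 and 13.6 to 4.06 and 4.90 CPM in the exposed cells (log2 fold change -1.64, SE 0.26, adjusted p = 2.16e-04). NPC2 changed by -1.42 and -1.27, and TM7SF2 by -0.84 and -0.89, in control and exposed cells on the log2 scale. The times did not overlap in any of the 3 genes. This also held for most genes tested, 11531 of 16740 in the controls and 11758 in the exposed cells. Without exposed replicate 2 of 30 weeks, which enters only through the shared spread, the control count was 14. The exposed count was 8 without exposed replicate 1 of 24 h and 7 without exposed replicate 2 of 24 h or either exposed library of 15 weeks. With library totals the controls gave 8 higher and 2 lower, with a median of all genes of 0.10.

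From 15 to 30 weeks, across the batches, more members were called lower in the controls than in the exposed cells. Of the 35, 14 were lower and 5 higher in the controls. Over all 16740 genes 50.3% were called there, 4126 lower and 4293 higher. In the exposed cells 10 members were lower and 11 higher, against 46% of all genes, 3801 lower and 3896 higher. The largest falls in the controls were in STARD4 (132 to 32.2 mean CPM, log2 fold change -2.04, SE 0.16, adjusted p = 1.99e-07), HSD17B7 (-2.02) and CYP51A1 (-1.84). These genes also had lower levels in the exposed cells at 30 weeks than at 15 weeks, by -1.17, -1.34 and -0.83, with adjusted p = 2.36e-05, 8.04e-06 and 8.68e-05. HMGCS1 was lower in both arms as well, by -1.79 in the controls and -0.91 in the exposed cells. Of the 22 members that were higher with exposure at 30 weeks, 13 had fallen and 0 had risen in the controls since 15 weeks. In the exposed cells 8 of them had fallen and 6 had risen. The 22 were chosen by the same 30 weeks samples, which favours a fall in the controls, so nothing is concluded from this split. PMVK rose most in both arms, from 6.07 and 7.29 to 22.6, 16.9 and 22.2 CPM in the controls (log2 fold change 1.62, SE 0.20, adjusted p = 9.00e-06) and by 1.86 in the exposed cells (adjusted p = 5.14e-06). In the controls SREBF2 (0.76) and NPC2 (0.67) were next.

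In the exposed cells TM7SF2 (3.49 to 9.19 mean CPM, log2 fold change 1.40, SE 0.22, adjusted p = 1.49e-04) and SREBF2 (0.89, adjusted p = 0.0194) rose most after PMVK. LSS had fallen in the controls (-0.83, adjusted p = 0.00397), while in the exposed cells it stood at 179 and 202 CPM at 15 weeks and 278, 155, 239.6 and 281 CPM at 30 weeks and did not pass the test. With library totals the controls gave 1 member higher and 18 lower at a median of all genes of -0.37, and the exposed cells 6 higher and 10 lower at a median of -0.16. Since these comparisons share the 15 weeks and 30 weeks samples with those of exposed against control cells, they are not independent of them.

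**Figure D3:**
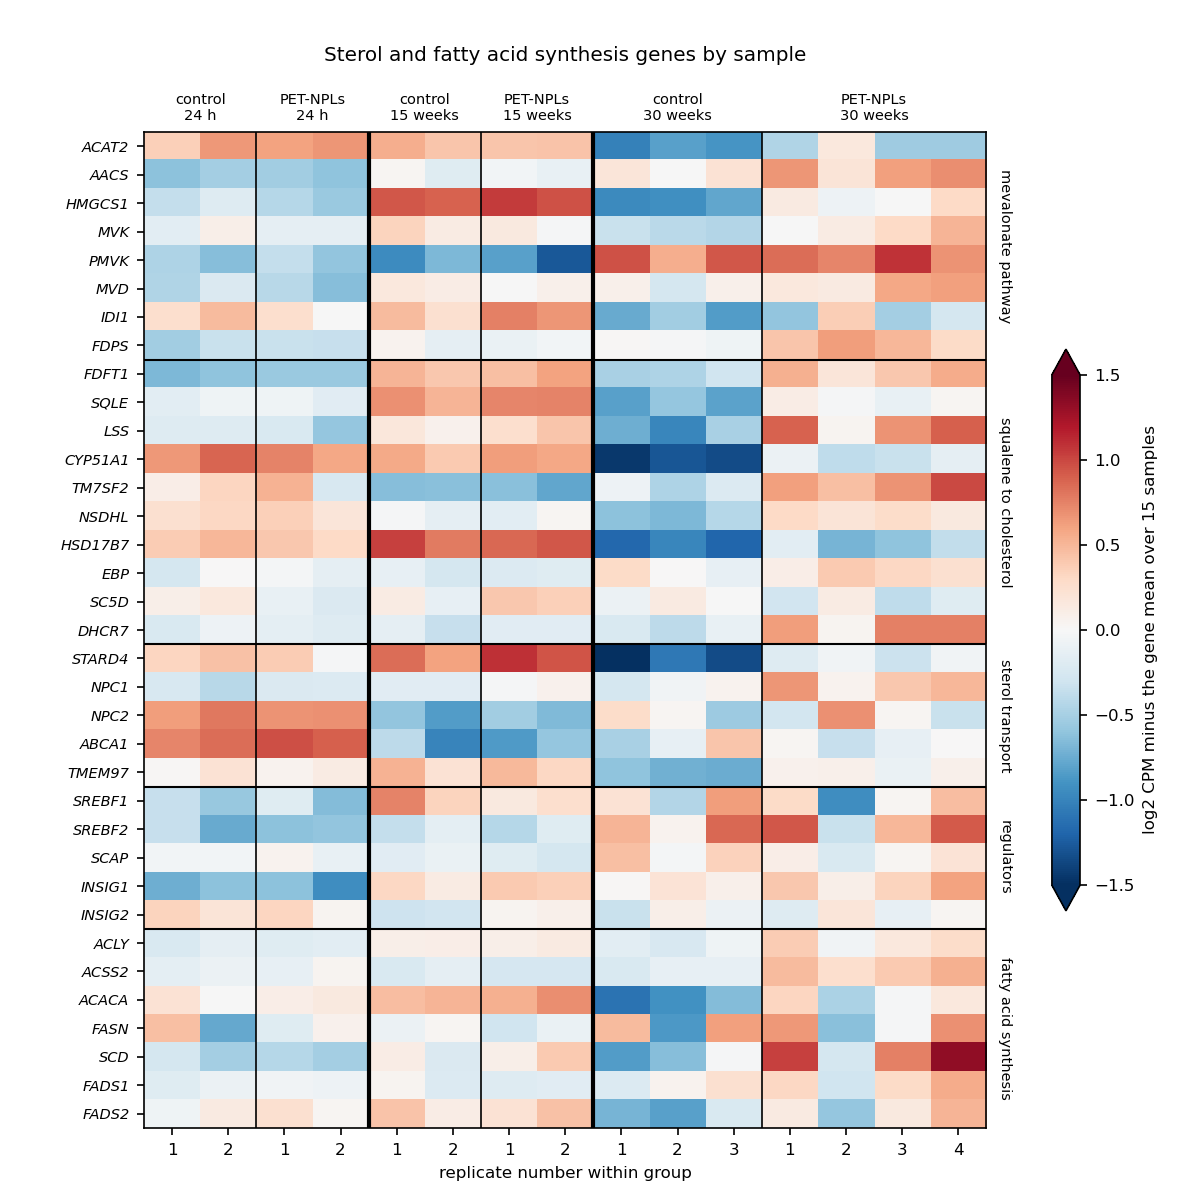
Heat map of log2 CPM minus the mean of each gene over all 15 samples (colour, blue lower and red higher, ends at 1.5 either way) for the 35 genes (rows, by role) in every sample (columns, by condition, thick lines between time points). The control columns of 30 weeks are blue for most sterol synthesis genes, and exposed replicate 2 is lower than the other 3 exposed columns of 30 weeks for LSS, DHCR7, SCD, FASN and SREBF2.

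Of 55 other genes of isoprenoid, sterol and fatty acid metabolism, 16 passed the test at 30 weeks, 9 higher and 7 lower with exposure, with a median log2 fold change of 0.16. That share of 29.1% lies near the 23.7% of all genes. Of 26 other fatty acid genes 6 were higher and 6 lower, with a median of 0.18. Among the lower ones, chosen after their values were seen, were SCD5, a desaturase related to SCD (log2 fold change -0.57, SE 0.13, adjusted p = 0.00491), and FADS3, a paralog of FADS2 (log2 fold change -0.34, SE 0.10, adjusted p = 0.0232). With library totals, of the 7 lower genes only ELOVL3 was still called, and SCD5 and FADS3 were at -0.36 and -0.13. None of the 11 genes listed as isoprenoid was called by edgeR, and 1 had an unadjusted p under 0.05. Most of these genes use farnesyl pyrophosphate or its products for prenylation, dolichol and ubiquinone, while LBR and ERG28 act in sterol synthesis. The largest change was in ELOVL3, a fatty acid elongase, at 0.787 to 1.16 CPM in the controls (22 to 27 counts) and 0 to 0.313 CPM in the exposed cells (0 to 9 counts), so that its fold rests on few counts (log2 fold change -2.27, SE 0.56, adjusted p = 0.00758). ELOVL7, another elongase, rose from a range of 2.61 to 4.08 CPM in the controls to one of 6.45 to 9.21 CPM (log2 fold change 1.40, SE 0.24, adjusted p = 4.19e-04). SCARB1, a receptor for lipoprotein cholesterol, rose from 22.7 to 31.9 CPM in the controls to values of 46.7 to 84.8 CPM (log2 fold change 1.29, SE 0.18, adjusted p = 6.17e-05). These groups did not overlap, and the same holds for HACD2, a dehydratase of fatty acid elongation (0.75), and OSBPL1A, an oxysterol-binding protein (0.69), which both rose. The count was 10 without exposed replicate 1 of 30 weeks and 10 in the fit of that time alone.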

How the data were processed

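Total RNA of BEAS-2B cells had been sequenced after ribosomal depletion with a stranded kit. The values used are gene counts as deposited: per their methods, the authors trimmed reads with Rfastp, aligned them to GRCh38 and counted them with Rsubread, and the submitters' processing notes also name bcl2fastq, featureCounts and hg38. The counting strand and the treatment of multiply aligned reads are not given in the sources used here, so the 12 members whose span overlaps another tested gene (FADS1 and FADS2 overlap each other) and those with pseudogene copies, such as FDPS and HSD17B7, are less certain.

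Entrez numbers were matched to RefSeq symbols for 27745 of 28395 genes. All 15 columns mapped to labelled samples, and 0 were left unused. Of 28395 genes, 16740 passed filterByExpr and were fitted with edgeR 4.0.16 (R 4.3.3), TMM factors and the quasi-likelihood test, with 1 mean per condition in a fit of all 15 samples that share 1 estimate of the spread. Adjusted p-values follow Benjamini and Hochberg across the 16740 genes, and a gene was called below 0.05. CPM are counts divided by the TMM-scaled library total. The methods of the study used limma-voom with surrogate variables after the same filter and scaling, which was run here as an alternative (limma 3.58.1, sva 3.50.0), as was DESeq2 1.42.0. Further alternatives were each time point fitted alone, no filter or a minimum of 10 counts per sample, factors from the upper quartile, library totals only, removal of 6 small noncoding RNAs, a threshold of 0.01, the replicate block and the exclusion of each library. The fitting code was tested on simulated data.

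Full statistics are given for members called between exposed and control cells and for the regulators at 30 weeks, and in the comparisons of times for up to 3 called members with the largest change in each direction. Members with an unadjusted p under 0.05 are named at 24 h and 15 weeks, and the 5 largest changes among the other called pathway genes. Other members are named by role. The members, the other lists and these rules were chosen with earlier results of these data known. Promoters come from RefSeq on GRCh38.p14, and exon lengths from GENCODE.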

Additional observations from a re-analysis of the deposited data

Results flagged for a closer look

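In the 4 exposed samples of 30 weeks, 2 of the 35 members had a sample that stood far from the other 3 by Dixon's test, which flags about 1 in 20 groups by chance. ACAT2, the cytosolic thiolase, was at 168 CPM in exposed replicate 2 against 104 to 110 CPM in the others. TMEM97, the sterol-binding membrane protein, was at 52.7 CPM in exposed replicate 3 against 59.2 to 59.7 CPM in the others, a small distance in a tight group. The change with exposure was larger at 30 weeks than at 15 weeks, by an interaction term in edgeR, for 9 members. The differences on the log2 scale were 1.15 for LSS, 1.01 for CYP51A1, 0.88 for HMGCS1, 0.86 for STARD4, 0.80 for MVK, 0.78 for NSDHL, 0.77 for FDFT1, 0.70 for TMEM97 and 0.65 for ACSS2. The times were in different batches, so a difference between times and one between batches cannot be told apart.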

How the results depend on the processing

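Over 25 alternatives per gene, 16 of the 22 members called at 30 weeks kept their call in all, and 0 of the 22 changed sign. The counts of members called at 24 h and 15 weeks stayed at 0 in every alternative. At 30 weeks the count was 16 to 25 when 1 library was left out, the 25 being 24 higher and SC5D lower. An adjusted p under 0.01 gave 2 calls for the difference of exposure effects, 7 for exposed cells of 15 weeks against 24 h and 9 for the other pathway genes at 30 weeks. Limma-voom with 2 surrogate variables gave 20 for the difference of effects (19 positive and SC5D negative), 19 for controls of 15 weeks against 24 h, 20 for exposed cells of the same times and 25 for the other pathway genes, which numbered 10 in the fit of 30 weeks alone. Leaving out single libraries gave 1 to 18 for the difference of effects, 6 to 14 and 7 to 18 for controls and exposed cells of 15 weeks against 24 h, and 10 to 23 for the other pathway genes. The deviations of same-numbered control and exposed samples correlated at -0.12 to 0.30, and those of differently numbered ones at -0.48 to 0.36. With groups this small, these values cannot decide whether the numbers pair the samples. The replicate block gave 18 members at 30 weeks in place of 22 and 4 for the difference of effects in place of 9, and turned SREBF2 to -0.11 and FASN to -0.0745. Genes that were not called also changed sign elsewhere: PMVK to -0.0080 with upper-quartile factors, and SC5D to 0.015, ABCA1 to 0.11 and SREBF1 to 0.088 with library totals. With 1 library left out, the log2 fold changes at 30 weeks ranged from -0.10 to 0.10 for PMVK, -0.14 to 0.32 for NPC2, -0.26 to 0.19 for ABCA1, -0.39 to 0.13 for SREBF1, -0.11 to 0.29 for SREBF2, -0.014 to 0.18 for INSIG2 and -0.28 to 0.32 for FASN. The cause of these changes was not tested. Groups of 2 at 24 h and 15 weeks limit what those comparisons can detect, and depth does not, since all members had at least 102 counts.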
